A study of Canis lupus familiaris with 10 samples.

Results

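Transcripts of the extracellular matrix were examined in the canine retina: the collagens, the laminins and 25 further matrix proteins (elastic fibre proteins, fibronectin and matricellular proteins, proteoglycans, tenascins and basement membrane linkers). A probe set, the group of short oligonucleotides that reports 1 transcript on the array, was included when its only gene symbol was a collagen, a laminin or 1 of these 25 genes. The rule found 184 probe sets of 42860 that are not array controls. They stand for 71 of 15115 genes with a symbol, of which 36 are collagens, 10 are laminins and 25 are the other listed proteins.

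The extracellular matrix of the retina includes basement membranes. Sheets of type IV collagen and laminin, tied together by nidogen and perlecan, form the inner limiting membrane under the end feet of Müller glia and the sleeves of the retinal vessels. Fibril-forming collagens belong mostly to the sclera, the optic nerve head, the vitreous and the outer coats of vessels, elastic fibres are laid down on fibrillin with the help of fibulins, and matricellular proteins such as thrombospondin and SPARC signal from the matrix to cells without building it.

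RNA came from the neural retina of 1 eye of each of 10 dogs and was hybridised to 1 Affymetrix Canine Genome 2.0 array per dog. The glaucoma group held 5 dogs of different breeds with primary glaucoma and closed irido-corneal angles, all treated with latanoprost and brinzolamide eye drops to lower the intraocular pressure and none operated on. They were a 5-year-old Shiba Inu, an older Shiba Inu, a 5-year-old Basset Hound, a 7-year-old Basset Hound and a Dalmatian. By label, the older Shiba Inu was 14 years of age and the Dalmatian 9, ages that differ from those in the study's own list of dogs. The healthy group held 5 Beagles aged 4 years with no ophthalmic findings and no medication listed, euthanized for unrelated reasons. The groups shared no breed and the controls were the younger dogs throughout, so breed, age and medication cannot be told apart from disease. Values of single dogs are given in this order of the glaucoma dogs and by replicate number for the healthy dogs.

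The deposited values were array intensities normalized by RMA, which corrects background, equalises the arrays and summarises the probes of a probe set. Their log2 was used here. Following the definition of expression in the methods, a probe set was tested when its log2 value was above 7 in at least 2 dogs, and where several probe sets of a gene passed, the one with the highest mean stood for the gene. Groups were compared with limma over all 18413 tested probe sets (7900 genes), and a transcript was called higher or lower at an adjusted p under 0.05 after Benjamini-Hochberg correction. Differences are glaucoma minus healthy on the log2 scale, where 1 is a 2-fold change, with the SE of the limma fit, and means are given ± SD (n = 5 dogs per group).

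Array medians lay between intensities of 77.3 and 80.9, and the precision was limited by the number of arrays. The arrays of the healthy retinas correlated with each other at 0.953 to 0.982 over tested probe sets, and those of the glaucomatous retinas at 0.849 to 0.967. The 5-year-old Shiba Inu stood apart, at 0.849 to 0.917 with the other glaucomatous retinas. Its 21 photoreceptor markers on the array had a median log2 difference of -2.94 from the healthy mean, against -0.94 in the Dalmatian and -0.13 to -0.02 in the other glaucomatous retinas, and its 20 tested pigment epithelium markers lay 2.73 above that mean. The retina of healthy dog 4 had the next highest pigment epithelium markers, at 1.39. All 21 photoreceptor markers on the array passed the expression minimum described above. The calls and the median difference of the matrix genes are given below with and without the 5-year-old Shiba Inu and healthy dog 4. Most single genes that were high in these retinas are given with them only. In RNA from whole tissue, fewer cells of a type and less RNA per cell cannot be told apart.

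Most matrix genes were below the expression minimum. Of the 71 genes, 30 were tested through 42 probe sets, and 41 genes had no probe set that passed. Of the 30 tested genes, 23 had 2 or more dogs above the minimum in both groups, 7 had them in the glaucoma group only and 0 in the healthy group only. The counts below therefore describe the tested genes and are not a measure of the whole set, since the minimum let in genes that were high in the glaucomatous retina alone.

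Transcript levels of 4 tested matrix genes, COL12A1, FBLN5, SPARCL1 and COL5A1, were higher in the glaucomatous retina, and 0 were lower. The 4 are 13.3% of the tested matrix genes, against 8.04% of all tested genes called higher and 8.65% called lower. Without adjustment, 9 matrix genes had p under 0.05 in the direction of glaucoma and 1, COL9A1, in the other. The shares of all tested genes at that threshold were not counted, so this split has no background to be read against. A 2-fold minimum kept COL12A1 and FBLN5, where 3.27% of all tested genes were called higher and 2.71% lower. In 3 genes, FBLN5, COL12A1 and SPARCL1, every glaucomatous retina lay above every healthy retina, and in 0 genes every one lay below, where 7.29% and 7.84% of all tested genes did. Of the 4 genes, FBLN5 and SPARCL1 passed the minimum in both groups, whereas COL12A1 and COL5A1 passed it in the glaucomatous retina only. By probe set, 6 of 42 (14.3%) were higher and 0 were lower, against 7.58% and 9.41% of all tested probe sets.

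The difference was above 0 in 27 of the 30 genes, as in 49.1% of all tested genes, and its median was 0.32 against -0.01 over all tested genes. With no expression minimum, the median over all 71 matrix genes was 0.13. Among the tested genes the difference ranged from -0.29 for COL9A1 to 1.98 for COL12A1. When the 5-year-old Shiba Inu and healthy dog 4 were left out, the median was 0.16 and the calls were FBLN5, SPARCL1, COL5A3 and LAMA1, against 7.29% of all genes called higher and 7.2% lower. COL5A1 then had a difference of 0.41 (adjusted p = 0.156, limma), and COL12A1 was no longer above the minimum in enough dogs to be tested. Without the Dalmatian, the calls were FBLN5 and SPARCL1, against 5.38% of all genes called higher and 6.06% lower. With age as a covariate the same 4 genes were called, against 7.1% of all genes called higher and 4.35% lower, although all controls had 1 age and the slope rested on the glaucoma dogs. With the 3′ to 5′ signal ratio of control transcripts as a covariate, described below, 0 were called.

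**Figure D1:**
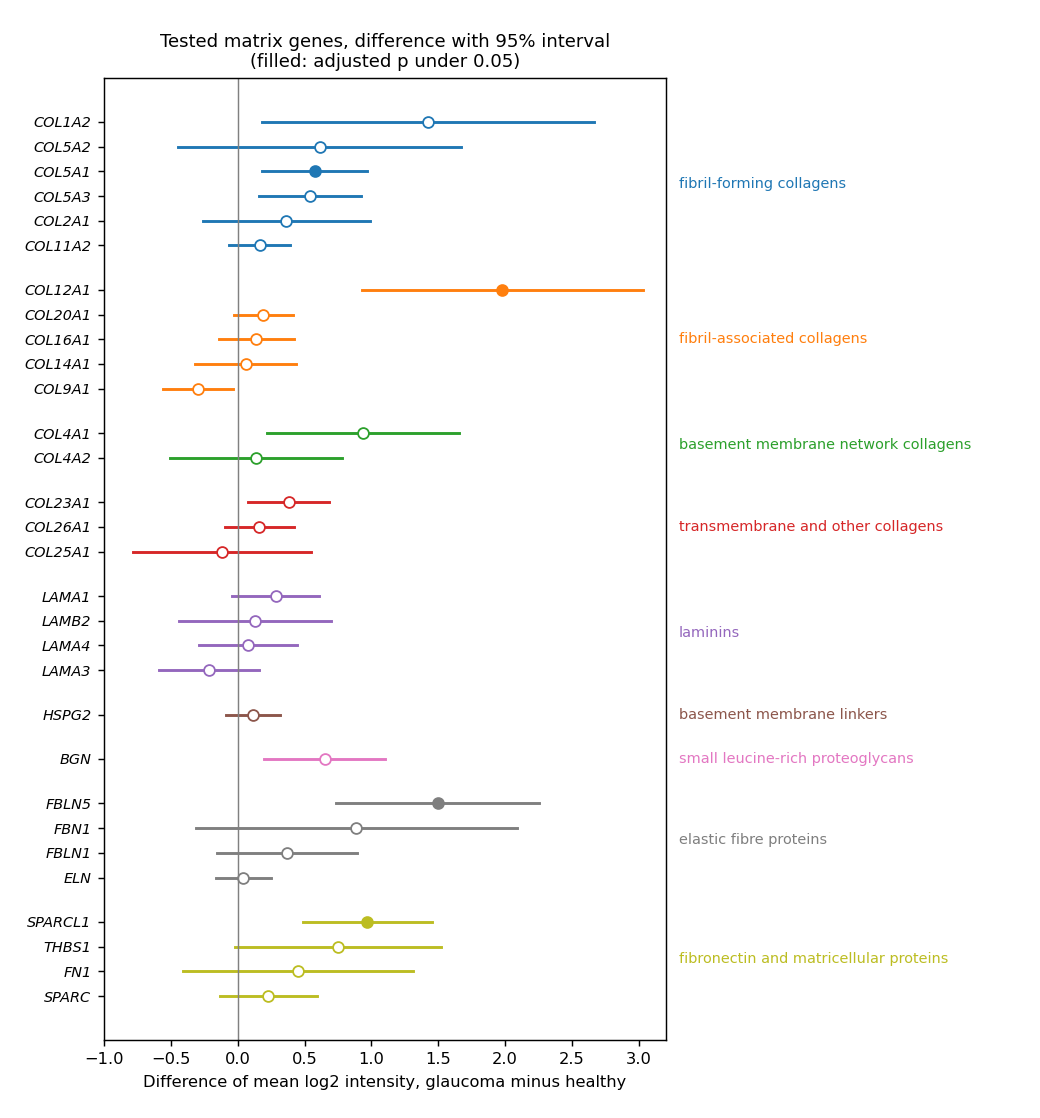
Difference of mean log2 intensity between glaucomatous and healthy retinas (x axis, glaucoma minus healthy, log2 scale) for the 30 tested matrix genes, grouped by protein family. Points are limma differences, bars are 95% confidence intervals and filled points are the 4 genes with an adjusted p under 0.05. Most points lie to the right of 0, and COL12A1 at 1.98 and FBLN5 at 1.49 lie farthest out among the called genes.

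Among the elastic fibre proteins, FBLN5 was higher in the glaucomatous retina. Of 5 genes on the array 4 were tested, 1 was higher and 0 were lower, with a median difference of 0.63. FBLN5 encodes fibulin-5, a secreted glycoprotein that binds integrins and tropoelastin and organises elastic fibres. Its log2 values in the glaucomatous retinas were 9.98, 8.19, 8.73, 8.33 and 9.07, and in the healthy retinas 7.53, 7.42, 6.98, 8.11 and 6.79. The groups did not overlap, but the older Shiba Inu at 8.19 and healthy dog 4 at 8.11 were close. The means were 8.86 ± 0.71 and 7.37 ± 0.51, a difference of 1.49 (SE 0.34, 2.82-fold, adjusted p = 0.0135, limma). A second tested FBLN5 probe set differed by 1.43 (SE 0.32, adjusted p = 0.0118). Another, below the minimum, differed by 1.61. The call for FBLN5 was kept in 29 of 31 alternative settings.

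FBN1, which encodes fibrillin-1, the scaffold of microfibrils, showed another pattern. Its values were 9.91 for the 5-year-old Shiba Inu and 8.45 for the Dalmatian, but 6.54, 6.95 and 7.20 for the other glaucomatous retinas. The healthy retinas were at 6.81, 6.73, 6.61, 7.51 and 6.96, so that only the first pair exceeded them in this probe set. The difference of 0.89 did not pass the test (SE 0.55, adjusted p = 0.288, limma). Another FBN1 probe set, below the minimum, was at 7.88, 5.85, 5.72, 5.87 and 6.21 against 5.40 to 5.60. Its groups did not overlap, and it differed by 0.80 (adjusted p = 0.201 with no minimum, limma). The remaining FBN1 probe sets, also below the minimum, differed by 0.29 and 0.069 with overlapping groups. FBLN1, another fibulin, differed by 0.37 (adjusted p = 0.31), and its highest value, 8.43, was again that of the 5-year-old Shiba Inu. Elastin itself, ELN, differed by 0.04 with a 95% confidence interval from -0.16 to 0.25. LOX, which cross-links elastin and collagen, was below the minimum.

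The fibril-associated collagens coat collagen fibrils and join them to other matrix. Of 8 genes on the array 5 were tested, 1 was higher and 0 were lower. COL12A1, the chain of type XII collagen, had the largest difference of the tested matrix genes. It was at 7.83, 5.46, 6.23, 6.21 and 8.17 in the glaucomatous retinas and at 4.50, 4.81, 4.87, 5.44 and 4.39 in the healthy ones. Only the 5-year-old Shiba Inu and the Dalmatian exceeded the minimum, and the older Shiba Inu was barely above the highest healthy retina. The means were 6.78 ± 1.16 and 4.80 ± 0.41, a difference of 1.98 (SE 0.48, 3.94-fold, adjusted p = 0.0167, limma), with a 95% confidence interval from 0.93 to 3.03. Both means were below the expression minimum of 7. The other 3 COL12A1 probe sets, also below it, differed by 0.26, 0.16 and 0.12.

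The other fibril-associated collagens did not pass the test. COL9A1, a type IX collagen chain typical of cartilage and vitreous, had the lowest difference, -0.29 (SE 0.12, adjusted p = 0.114, limma), with a 95% confidence interval from -0.56 to -0.03. COL14A1 differed by 0.06, COL20A1 by 0.19 and COL16A1 by 0.14. A second COL16A1 probe set differed by 0.65 with no overlap between the groups, and its adjusted p was 0.0624.

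Fibril-forming collagens build the load-bearing fibres of connective tissue. Of 10 genes on the array 6 were tested, 1 was higher and 0 were lower, with a median difference of 0.56. COL5A1, a chain of type V collagen that starts fibrils and limits their diameter, was at 7.81, 7.01, 7.52, 7.22 and 7.43 in the glaucomatous retinas. The healthy retinas were at 7.34, 6.81, 6.72, 6.56 and 6.71, and healthy dog 1 alone overlapped the glaucoma group. The means were 7.40 ± 0.30 and 6.83 ± 0.30, a difference of 0.58 (SE 0.18, 1.49-fold, adjusted p = 0.0498, limma). This value is at the edge of the threshold, and the call was kept in 11 of 31 alternative settings. The other 3 COL5A1 probe sets, below the minimum, differed by 0.023, 0.076 and -0.0040.

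The other type V chains differed by similar amounts without passing. COL5A3 was at 7.17, 7.83, 7.82, 7.91 and 7.59 against 7.05, 6.77, 7.36, 6.99 and 7.44, a difference of 0.54 (adjusted p = 0.0542, limma). Here the 5-year-old Shiba Inu was the lowest glaucomatous retina and the only one within the healthy range. COL5A2 reached 9.48 (5-year-old Shiba Inu) and 7.86 (Dalmatian), and was at 6.64, 6.70 and 6.81 in the others, against 6.60 to 7.29 in the healthy retinas. Its difference of 0.61 had an adjusted p of 0.404.

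COL1A2, a chain of type I collagen, the main collagen of sclera and other fibrous tissue, had the largest difference that did not pass. It was at 10.32, 7.14, 7.53, 8.45 and 8.88 in the glaucomatous retinas and at 6.86, 6.57, 7.31, 6.26 and 8.22 in the healthy ones. The groups overlapped through healthy dog 5 above and the older Shiba Inu below. The means were 8.47 ± 1.25 and 7.04 ± 0.76, a difference of 1.42 (SE 0.56, 2.68-fold, adjusted p = 0.108, limma). COL2A1, the type II collagen of vitreous and cartilage, was at 11.49, 10.61, 11.31, 9.99 and 11.19 against 10.86, 10.03, 10.73, 10.31 and 10.85, with overlapping groups and a difference of 0.36 (adjusted p = 0.401). COL11A2 differed by 0.16.

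**Figure D2:**
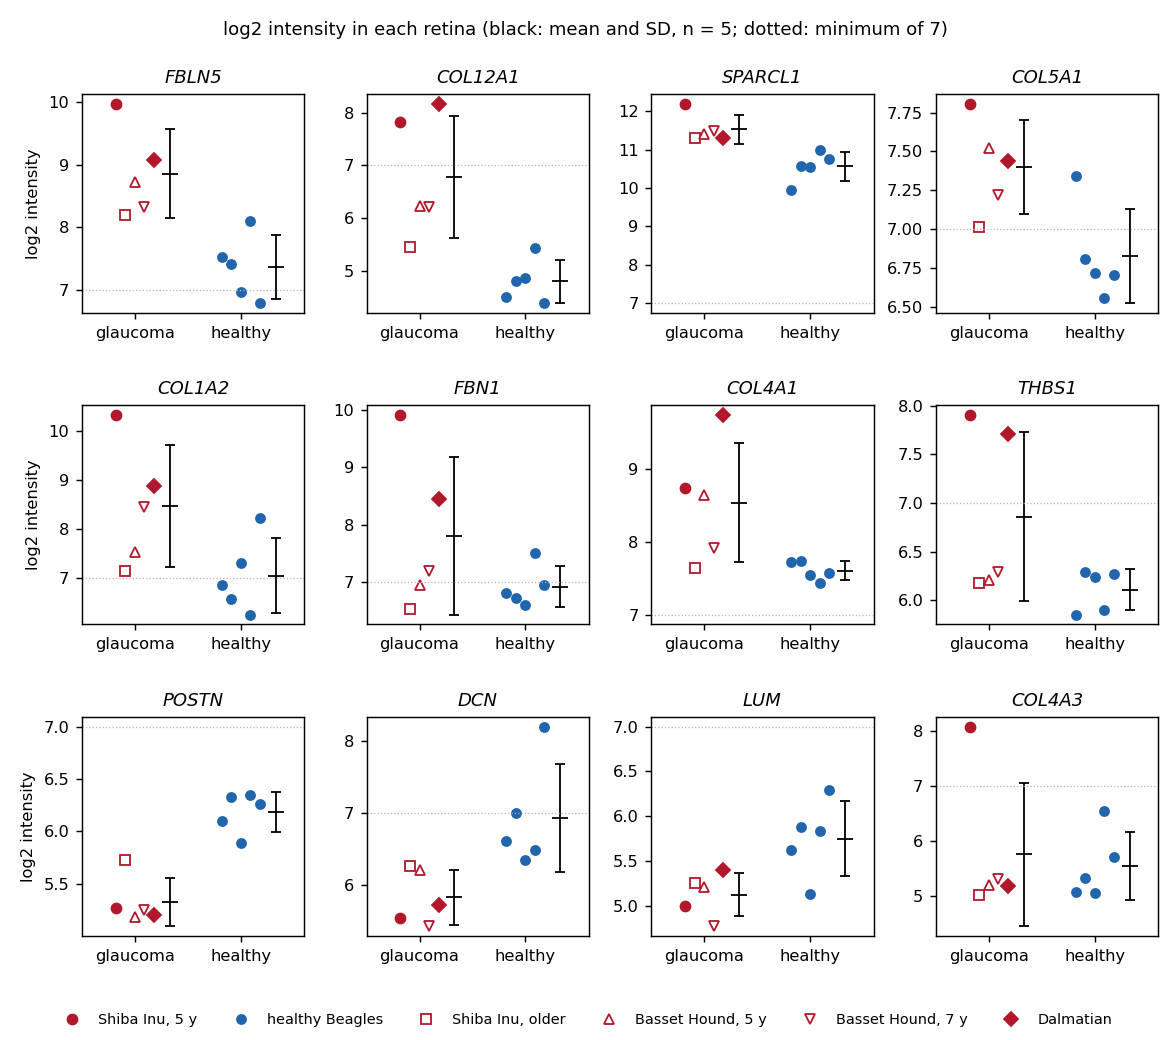
Log2 intensity (y axis) in each of the 10 retinas for 12 matrix genes named in the text (POSTN, DCN, LUM and COL4A3 were below the minimum, and LUM is shown by the probe set that differed by -0.63), with glaucomatous and healthy retinas side by side, black bars for the mean and SD (n = 5) and the expression minimum of 7 as a dotted line. FBLN5, COL12A1 and SPARCL1 show no overlap between the groups, whereas in FBN1, THBS1 and COL1A2 the 5-year-old Shiba Inu and the Dalmatian or 1 healthy retina spread the values.

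Fibronectin and the matricellular proteins were tested for 4 of 6 genes, of which 1 was higher and 0 were lower, with a median difference of 0.60. SPARCL1 encodes hevin, a relative of SPARC that astrocytes secrete and that promotes the formation of excitatory synapses. It was at 12.21, 11.29, 11.41, 11.48 and 11.30 in the glaucomatous retinas and at 9.96, 10.57, 10.54, 11.00 and 10.77 in the healthy ones. The groups did not overlap, and the 5-year-old Shiba Inu was the highest. The means were 11.54 ± 0.38 and 10.57 ± 0.38, a difference of 0.97 (SE 0.22, 1.96-fold, adjusted p = 0.0127, limma). A second SPARCL1 probe set differed by 0.70 (SE 0.19, adjusted p = 0.0256), with overlapping groups.

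SPARC, a collagen-binding matricellular protein, was at 12.26 to 13.26 in the glaucomatous and 12.32 to 12.61 in the healthy retinas, a difference of 0.23 (adjusted p = 0.362, limma). THBS1, thrombospondin-1, an inhibitor of vessel growth and activator of latent TGF-β, was high in the 5-year-old Shiba Inu (7.91) and the Dalmatian (7.71). The other glaucomatous retinas were at 6.18, 6.21 and 6.29 and the healthy ones at 5.85 to 6.29. The difference of 0.75 did not pass (SE 0.35, adjusted p = 0.164). FN1, fibronectin, was at 7.78, 6.82, 7.97, 7.05 and 9.17 against 7.09, 7.27, 6.84, 7.86 and 7.48. Only the Dalmatian stood clear of the healthy retinas, and the difference was 0.45 with a 95% confidence interval from -0.41 to 1.31.

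No gene of the basement membrane passed the test. Type IV collagen is the network collagen of all basement membranes, and COL4A1 and COL4A2 were the tested members of 6 chains on the array. COL4A1 was at 8.74, 7.64, 8.64, 7.91 and 9.73 in the glaucomatous retinas, with a wide spread, and at 7.72, 7.74, 7.54, 7.43 and 7.57 in the healthy ones, with a narrow one. Only the older Shiba Inu lay within the healthy range. The means were 8.53 ± 0.82 and 7.60 ± 0.13, a difference of 0.94 (SE 0.33, adjusted p = 0.0723, limma). Without the older Shiba Inu, or without both Shiba Inus, COL4A1 was called higher. These COL4A1 values are those of its most intense probe set. Its other tested probe sets differed by 0.44 (adjusted p = 0.573, limma) and 0.73 (adjusted p = 0.128), with overlapping groups. In both, the older Shiba Inu lay below every healthy retina. COL4A2, whose chain joins with that of COL4A1 in the same triple helix, differed by 0.13 with a 95% confidence interval from -0.51 to 0.78. Both genes had their highest value in the Dalmatian and their lowest among glaucomatous retinas in the older Shiba Inu.

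Laminins, the cross-shaped trimers of basement membranes, were tested for 4 of 10 genes, of which 0 were higher and 0 were lower, with a median difference of 0.10. LAMA1, a laminin alpha chain of the inner limiting membrane, was at 10.44, 10.88, 11.16, 10.85 and 10.74 against 10.40, 10.44, 10.41, 10.90 and 10.51. The groups overlapped through the 5-year-old Shiba Inu and healthy dog 4, and the difference was 0.28 with a 95% confidence interval from -0.04 to 0.61 (adjusted p = 0.213, limma). LAMA4, the alpha chain of vessel laminins, differed by 0.08 in its most intense probe set and by 0.31 to 0.44 in its 3 others. LAMB2, a beta chain of retinal and synaptic laminins, differed by 0.13 with an interval from -0.44 to 0.70. LAMA3 differed by -0.21 with an interval from -0.58 to 0.16, and its other tested probe set by -0.79 (adjusted p = 0.297), the lowest difference of any tested matrix probe set. HSPG2, perlecan, the heparan sulphate proteoglycan that ties laminin to collagen, differed by 0.11 with an interval from -0.09 to 0.32. The remaining linkers, AGRN, NID1 and NID2, were not tested, nor were LAMA5, LAMB1, LAMB3, LAMB4, LAMC1 and LAMC3.

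Among the small leucine-rich proteoglycans, which bind collagen fibrils and growth factors, BGN alone was tested. Biglycan was at 8.11, 8.32, 7.57, 8.50 and 8.83 in the glaucomatous retinas and at 7.73, 7.62, 7.76, 7.60 and 7.36 in the healthy ones. The 5-year-old Basset Hound lay within the healthy range and the other glaucomatous retinas above it. The difference of 0.65 (SE 0.20, 95% confidence interval 0.20 to 1.10) narrowly missed the threshold at an adjusted p of 0.0511. Of the transmembrane collagens and collagens outside the classical families, COL23A1 differed by 0.38 (adjusted p = 0.0812), COL26A1 by 0.16 and COL25A1 by -0.12.

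The glaucomatous retinas differed among themselves more than the healthy ones did. The median SD of the 30 genes was 0.37 in the glaucoma group and 0.24 in the healthy group, against 0.26 and 0.18 over all tested genes. The glaucoma SD was the larger one in 22 of the 30 genes, and in 76.1% of all tested genes, so that the matrix genes did not stand apart in that share. The median difference of a retina from the healthy mean over the 30 genes was 0.45 for the 5-year-old Shiba Inu and 0.50 for the Dalmatian, and 0.14, 0.13 and 0.11 for the older Shiba Inu and both Basset Hounds. The 5-year-old Shiba Inu was the highest glaucomatous retina in 11 genes and the Dalmatian in 13, whereas the older Shiba Inu was the lowest in 11. The healthy retinas had medians of -0.08 to 0.13.

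**Figure D3:**
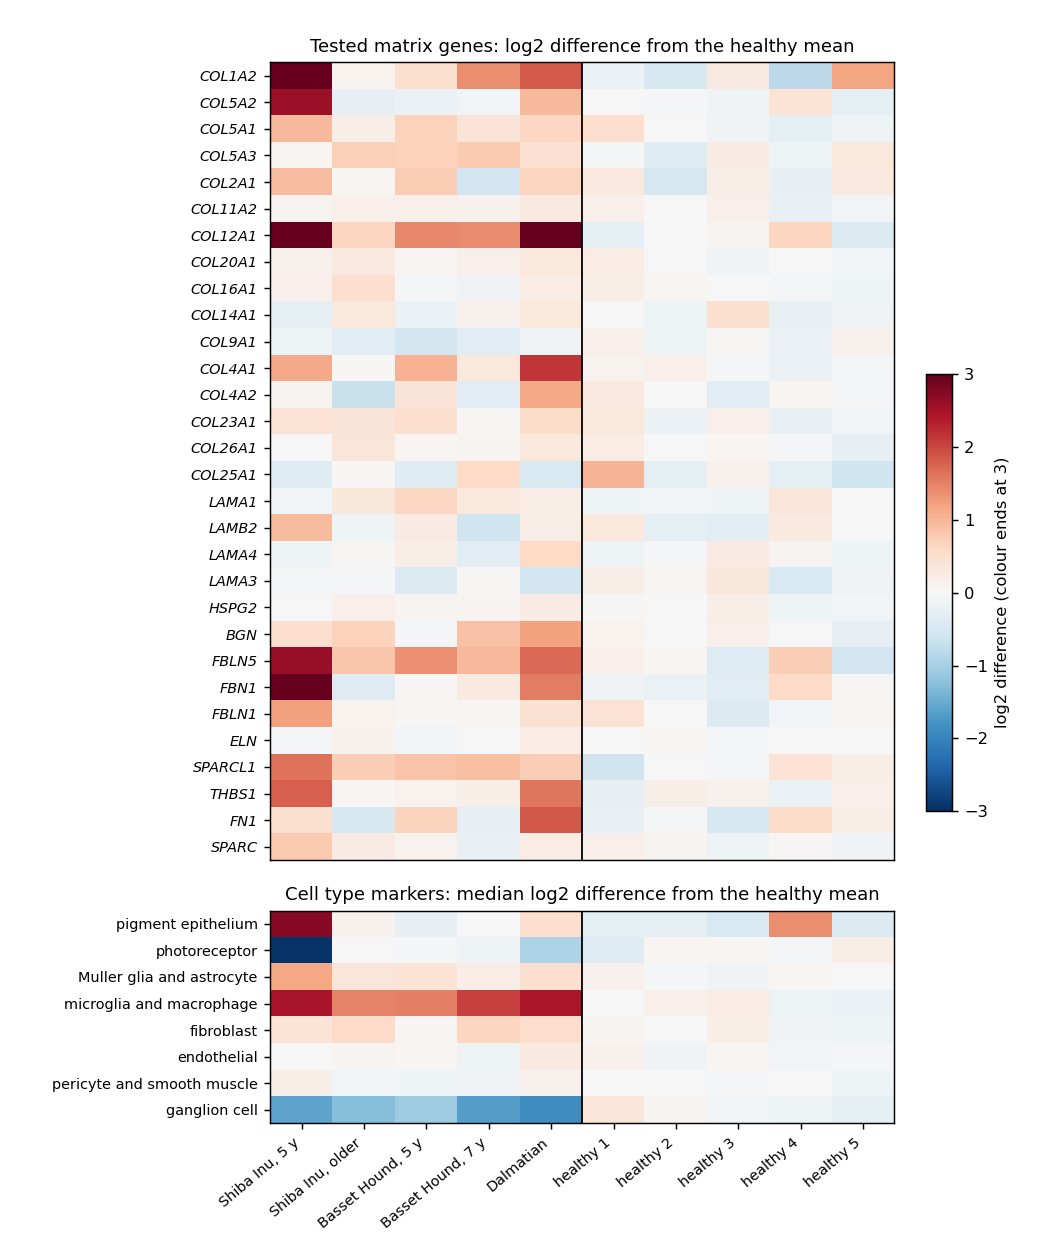
Log2 intensity of each retina (columns) minus the mean of the healthy retinas for the 30 tested matrix genes (rows of the upper panel, grouped by family) and as a median over each list of cell type markers (lower panel), in colours that end at 3. The columns of the 5-year-old Shiba Inu and the Dalmatian hold most of the strongest positive values, among them FBN1, COL1A2, COL12A1 and THBS1, while the other 3 glaucomatous columns are paler.

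Markers of cells that make matrix were counted beside these genes. Of 26 fibroblast markers on the array 12 were tested, of which 5 were higher and 0 were lower (C7, CXCL12, MFAP5, PDGFRA and S100A4). The summed intensity of the tested markers was 32242 to 34319 in the glaucomatous and 26250 to 28221 in the healthy retinas. SFRP2, which did not pass, and MFAP5 made up most of that sum, and the other 10 markers summed to 2585 to 4043 and 1486 to 2000. By retina, the median difference of the fibroblast markers from the healthy mean was 0.40, 0.58, 0.048, 0.64 and 0.54. MFAP5 also belongs to the list of other matrix proteins described below, and THY1 also to the ganglion cell markers. The study names CXCL12 among the genes that glia can transcribe. Other fibroblast markers such as DPT, PI16, TCF21 and TWIST1 were below the minimum. Of 9 tested markers of pericytes and smooth muscle, 2 were higher (DES and PDGFRB) and 0 were lower, with sums of 2258 to 3834 and 2580 to 3623, and of 8 endothelial markers 1 was higher (FLT1) and 0 were lower, with sums of 9139 to 15670 and 8531 to 10573. RGS5 and CSPG4 of pericytes and PECAM1, CDH5 and TEK of endothelium were below the minimum.

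Of 14 tested markers of Müller glia and astrocytes, 6 were higher and 0 were lower, with sums of 74282 to 99815 in the glaucomatous and 62767 to 72868 in the healthy retinas. Of 13 markers of microglia and macrophages, 11 were higher and 0 were lower, with sums of 8868 to 20469 and 2299 to 3312. Of 20 tested pigment epithelium markers 1 was higher and 0 were lower, with sums of 17496 to 81839 and 13211 to 55484, and CDH3 and MLANA were below the minimum. Of 16 tested ganglion cell markers 1 was higher and 10 were lower, and of 6 lens and cornea markers 0 were higher and 1 was lower. The higher ganglion cell marker was SNCG (2.52, adjusted p = 0.000195, limma), which the study lists as lower by another probe set. The part of any of these cell types in the matrix differences was not tested.

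RNA quality also moved with the groups. For actin and GAPDH, the array carries control probe sets at either end of the transcript, and their 3′ signal over their 5′ signal measures how far the RNA was shortened. On the log2 scale this ratio was 0.94 ± 0.14 in the glaucomatous and 1.19 ± 0.22 in the healthy retinas. With this ratio as a covariate the differences were 1.53 for COL12A1 (adjusted p = 0.177, limma), 1.54 for FBLN5 (adjusted p = 0.0871), 0.68 for SPARCL1 (adjusted p = 0.157) and 0.74 for COL5A1 (adjusted p = 0.0869). No matrix gene was called in that fit, where 2.47% of all genes were called higher and 2.52% lower.

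Below the expression minimum lay 41 matrix genes, among them type I and III collagen (COL1A1, COL3A1), all 6 network and beaded filament collagens outside type IV, LOX, and all 6 genes of the lecticans, the hyaluronan link protein and the tenascins (BCAN, NCAN, VCAN, HAPLN1, TNC and TNR). The 142 untested probe sets had group means of 3.81 to 6.93. Of these genes, 37 had no value above 7 in their most intense probe set, and 38 differed by less than 0.3 in either direction. The exceptions below were chosen after their values were seen.

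When every probe set was tested, with no minimum, 4 of the 142 otherwise untested matrix probe sets passed, 2 higher and 2 lower. Of all 42860 probe sets, 3.7% were called higher and 4.63% lower. Those shares include the probe sets above the minimum, and the share among probe sets below it was not counted. The higher ones were the remaining FBLN5 probe set (adjusted p = 0.0181, limma) and 1 of COL15A1 (0.43, adjusted p = 0.0261). The lower ones were those of periostin and lumican. POSTN, a matricellular protein of fibrous tissue, was at 5.27, 5.73, 5.18, 5.25 and 5.20 in the glaucomatous retinas and at 6.10, 6.32, 5.89, 6.35 and 6.27 in the healthy ones. The groups did not overlap, and the difference was -0.86 (adjusted p = 0.00209). LUM, a keratan sulphate proteoglycan of cornea and sclera, was at 4.69, 4.31, 4.18, 4.11 and 4.54 against 5.64, 6.35, 4.58, 5.78 and 6.36, a difference of -1.37 (adjusted p = 0.0151). Healthy dog 3 lay within the glaucoma range there, and the other LUM probe set differed by -0.63 (adjusted p = 0.0751).

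DCN, decorin, a proteoglycan of collagen fibrils that binds TGF-β, was at 5.54, 6.26, 6.21, 5.43 and 5.72 in the glaucomatous and at 6.62, 7.00, 6.35, 6.48 and 8.20 in the healthy retinas. Every glaucomatous value was below every healthy value, and the difference of -1.10 had an adjusted p of 0.0616 with no minimum. After quantile normalization DCN passed the minimum and was called lower. LAMB1, a laminin beta chain, had 1 probe set with 7.18, 5.02, 4.86, 5.64 and 5.62 against 4.24 to 4.69 (1.25, adjusted p = 0.0546 with no minimum), while its most intense probe set differed by 0.20. COL4A3, whose chain belongs to specialised basement membranes, was high in the 5-year-old Shiba Inu (8.07) and at 5.01 to 5.31 in the other glaucomatous retinas, against 5.05 to 6.54 in the healthy ones.

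Genes that process, bind or accompany these proteins were counted from lists of related genes. Of 18 tested collagen-processing enzymes, 5 were higher and 1 was lower, with a median difference of 0.34. Of all tested genes, 8.04% were called higher and 8.65% lower. The enzyme counts were 1 and 0 when the probe set with the lowest mean stood for each gene (7.7% of all genes higher). They were also 1 and 0 with the 3′ to 5′ covariate (2.47%). With the probe set of largest SD (8.39%) or without healthy dog 2 (5.14%) they were 2 and 0. P3H2, prolyl 3-hydroxylase 2, which modifies collagen chains, was at 8.84, 8.92, 8.86, 8.85 and 8.84 in the glaucomatous retinas and at 7.62, 7.47, 7.59, 7.44 and 7.63 in the healthy ones. Both groups were tight and far apart, and the difference was 1.31 (SE 0.08, adjusted p = 1.78e-05, limma). P4HA1, the catalytic subunit of prolyl 4-hydroxylase, was higher by 1.04 (SE 0.21, adjusted p = 0.00684), and the other higher genes were PPIB (0.44), CRTAP (0.73) and P4HB (0.32), all of which act on collagen in the endoplasmic reticulum. SEC23A, a coat protein of the vesicles that carry collagen out of that compartment, was lower, with a difference of -0.65 (adjusted p = 0.0262). SERPINH1, the collagen chaperone HSP47, differed by 0.43 with an adjusted p of 0.0585.

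Of 13 tested matrix receptors other than integrins, 3 were higher and 1 was lower, with a median difference of 0.06. The gene called lower, SGCE, was at the edge of the threshold and was not called after quantile normalization or median centring, and without healthy dog 2 or with the 3′ to 5′ covariate 1 receptor was higher and 0 were lower. DDR1, a receptor tyrosine kinase for collagen, was at 11.46, 11.04, 10.91, 10.72 and 11.43 against 10.56, 9.94, 10.13, 10.28 and 10.01, with no overlap and a difference of 0.93 (SE 0.17, adjusted p = 0.00459, limma). CD44, the hyaluronan receptor, was higher by 0.84 (adjusted p = 0.0288) and LRP1, an endocytic receptor, by 0.62 (adjusted p = 0.0225). CD44 is also 1 of the 6 glial markers that were higher. SGCE, a sarcoglycan, differed by -0.38 (adjusted p = 0.049).

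Of 33 other matrix proteins tested, 11 were higher and 2 were lower, with a median difference of 0.46. Some of the 11, such as MFAP4 and COMP, had 2 or more dogs above the expression minimum in the glaucoma group only. The counts of related genes therefore describe the tested genes and are not a measure of the whole lists. With a log2 above 7 required in at least 5 dogs, 7 of 26 other matrix proteins were higher, against 7.45% of all genes. Over the 3 lists, 19 of 64 tested genes were higher and 4 were lower, where 8.04% and 8.65% of all tested genes were. The counts were 10 and 0 with the 3′ to 5′ covariate (2.47% of all genes higher) and 11 and 0 without healthy dog 2 (5.14%). FGG, the fibrinogen gamma chain, had the largest difference of the named genes. It was at 11.75 to 12.35 in the glaucomatous retinas, highest in the 7-year-old Basset Hound, and at 9.71, 9.04, 8.64, 8.70 and 8.46 in the healthy ones, a difference of 3.05 (SE 0.22, adjusted p = 4.43e-05, limma). EFEMP1, fibulin-3, was at 13.10, 12.42, 12.61, 12.72 and 12.49 against 10.85, 11.24, 11.52, 11.39 and 11.08, a difference of 1.45 (SE 0.16, adjusted p = 0.000227). In both genes every glaucomatous retina lay far above every healthy one.

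Proteins that accompany elastic fibres moved in different directions. EFEMP2, fibulin-4, was higher by 1.17 (adjusted p = 0.00214), MFAP4 by 1.73 (adjusted p = 0.000275) and MFAP5 by 0.87 (adjusted p = 0.000559), both microfibril-associated proteins, and LTBP3, which holds latent TGF-β in the matrix, by 1.24 (adjusted p = 0.00168). FBLN2, another fibulin, differed by 0.10 (adjusted p = 0.658), LTBP2 by 0.17 (adjusted p = 0.323), LTBP4 by -0.0034 (adjusted p = 0.988) and MFAP2 by -0.32 (adjusted p = 0.104), and none of them passed. EMILIN1, an elastin-associated glycoprotein, was lower, at 9.40, 10.23, 9.96, 10.01 and 10.02 against 10.36, 10.51, 10.71, 10.26 and 10.34 (-0.51, adjusted p = 0.0447).

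Of the others, SPON1 was higher by 1.38 (adjusted p = 0.00112) and COMP, a thrombospondin of cartilage and tendon, by 1.17 (adjusted p = 0.014). RELN, reelin, a matrix glycoprotein made by neurons, was lower, at 9.38, 8.42, 9.02, 8.02 and 7.23 against 9.93, 9.29, 9.55, 9.54 and 9.74, a difference of -1.20 (SE 0.34, adjusted p = 0.0362). The 5-year-old Shiba Inu overlapped the healthy retinas there. EMILIN1 and RELN were the 2 other matrix proteins called lower, and these calls depended on single dogs. Neither was kept when any 1 healthy dog, the 7-year-old Basset Hound or the Dalmatian was left out. With the 3′ to 5′ covariate 0 were lower as well. Without the older Shiba Inu or without the 5-year-old Basset Hound, 1 was lower. COL12A1, FBLN5, FGG, EFEMP1, EFEMP2, COMP, LTBP3 and RELN, and the fibroblast markers CXCL12 and PDGFRA, are in the study's own lists of changed genes. So are ganglion cell, glial and microglial markers counted above, such as NEFL, GFAP, APOE, C1QA and CSF1R. Those lists were drawn from these samples, so the direction of these genes here is not independent evidence.

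**Figure D4:**
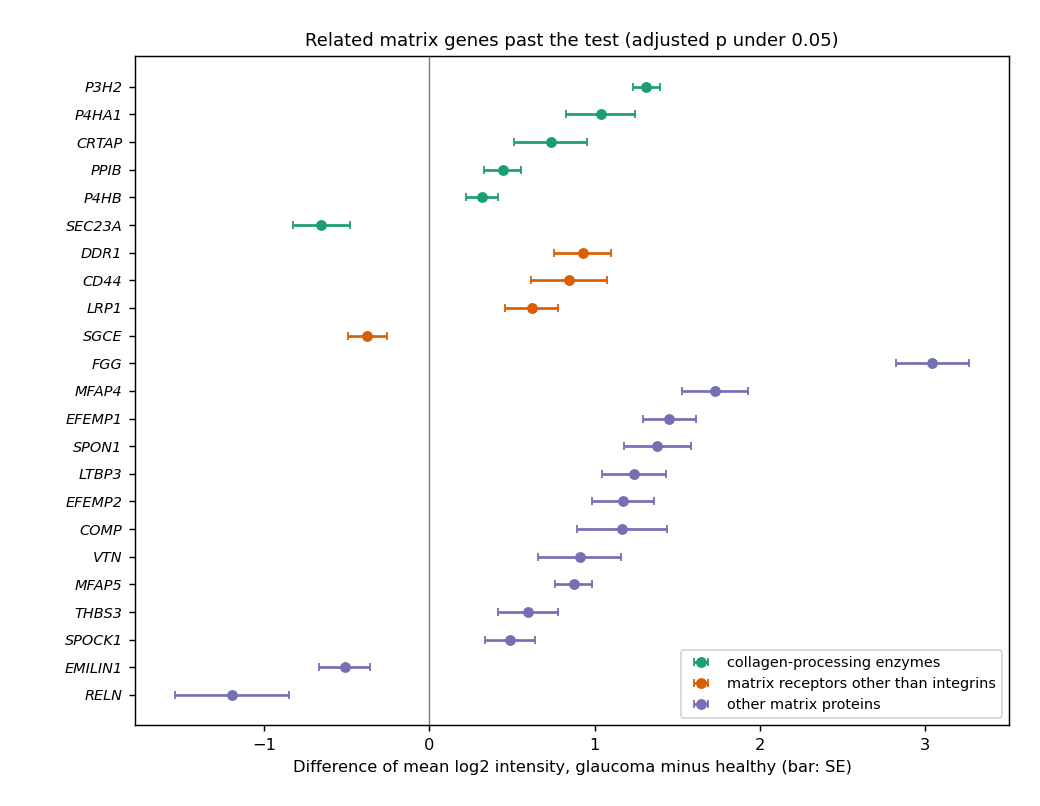
Difference of mean log2 intensity (x axis, glaucoma minus healthy, log2 scale, bars are SEs) for the genes with an adjusted p under 0.05 among the collagen-processing enzymes, the matrix receptors other than integrins and the other matrix proteins, coloured by list. Of these genes 19 lie above 0 and 4 below, from FGG at 3.05 to RELN at -1.20.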

How the data were processed

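Neural retina of 5 glaucoma dogs and 5 healthy dogs was measured on 1 array per dog, and the groups follow the sample labels. The authors normalized the arrays with RMA and deposited linear intensity values for all probe sets, and log2 of the deposited values was taken here. RMA can compress differences at low signal. The 111 AFFX and 64 reporter control probe sets were removed. Gene symbols came from the 2016 platform annotation, which gives 1 symbol to 29254 probe sets, several to 439 and none to 13167. No probe set with several symbols was used.

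Probe sets that exceeded a log2 of 7 in 2 or more dogs were fitted with limma 3.58.1 in R 4.3.3 (lmFit and eBayes, no covariate), tested on simulated data beforehand. P-values were adjusted over all tested probe sets. The study's exact Wilcoxon test was an alternative, and SAM was not run. The p-values measure the spread between dogs. The members, gene lists, alternatives and naming rule were chosen with earlier results of these data known. Named in full were called genes, up to 4 members with the largest differences that did not pass, members in the study's lists of changed genes, and up to 6 genes per related list. Further genes were chosen after their values were seen.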

Additional observations from a re-analysis of the deposited data

Results flagged for a closer look

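Among 122 sets of 5 retinas examined, the highest or lowest retina stood apart from the other 4 in 11. Chance gives about 1 in 20 sets, but genes such as COL4A3 were chosen with their values seen, so that the number is not to be read against that rate. The gap to the nearest retina was 71.3% to 90.2% of the whole range of the group. In the 5-year-old Shiba Inu, 5 genes were high: COL4A3 at 8.07 (nearest 5.31), VCAN at 6.16 (nearest 5.05), SPARCL1 at 12.21 (nearest 11.48), CRTAP at 10.79 (nearest 9.83) and LRP1 at 8.85 (nearest 8.22). This is the retina whose pigment epithelium markers were highest and photoreceptor markers lowest, and the part of that in these values was not tested. Without it, SPARCL1 was still called higher.

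The older Shiba Inu stood high in P3H2 at 8.92 (nearest 8.86), a gap that is small because the glaucomatous retinas were so close together, and in POSTN at 5.73 (nearest 5.27). Among the healthy retinas, LAMA1 was at 10.90 in dog 4 (nearest 10.51), COL20A1 at 7.11 in dog 1 (nearest 6.88) and COL14A1 at 7.62 in dog 3 (nearest 7.11). MFAP5 was low in healthy dog 3, at 11.95 (nearest 12.17).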

How the results depend on the processing

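With 5 dogs per group, 901 comparisons of a tested matrix gene with an alternative kept direction and side of the threshold in 838, and 19 changed direction, all in genes that had not passed. For the 26 genes not called, keeping the side meant staying uncalled, so that the 838 do not measure how firm the calls were. The calls were kept in 29 of 31 alternatives for FBLN5, 22 of 25 for COL12A1, 27 of 31 for SPARCL1 and 11 of 31 for COL5A1. The 25 leave out the alternatives in which COL12A1 was below the expression minimum and so was not called. Among these were the fits without the 5-year-old Shiba Inu and without the Dalmatian. Matrix genes higher (4) were 2 with a mean above 7, 7 with array weights and 2 with an unpaired t-test after Benjamini-Hochberg. Of all tested genes, 7.48%, 11.9% and 6.66% were called higher in those fits. Matrix genes higher were 2 at 2-fold (3.27% of all genes) and 0 with the 3′ to 5′ covariate (2.47%). By the exact Wilcoxon test after Benjamini-Hochberg, 0 matrix genes and 0 of all genes were called, and the smallest adjusted p of a matrix gene was 0.0534. At p under 0.01 that test called 3, against 7.29% of all genes. Matrix genes lower (0) were 1 with no filter and 1 after quantile normalization, against 4.91% and 8.24% of all genes. The median difference was 0.13 with no filter and 0.16 without the 5-year-old Shiba Inu and healthy dog 4.

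Related genes higher (19) were 0 by that Wilcoxon test, 9 at 2-fold and 10 with the 3′ to 5′ covariate. Related genes lower (4) were 2 with no filter, quantile normalization, median centring, the t-test at p under 0.01, the age covariate, those dogs left out or no shared-sequence probe sets, 1 with the Wilcoxon test at p under 0.01, at 2-fold or with the replicate block, and 0 after Benjamini-Hochberg of the Wilcoxon test or t-test or with the 3′ to 5′ covariate.

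Leaving out 1 dog gave 2 to 6 matrix genes higher, 0 lower, a median of 0.19 to 0.41, and 11 to 18 related genes higher and 0 to 4 lower. In those fits 5.14% to 9.26% of all genes were called higher and 5.46% to 10.6% lower. Without the older Shiba Inu 6 matrix genes were called (9.26% of all genes higher), and without the Dalmatian 2 (5.38% of all genes higher). Replicate numbers did not pair the dogs (correlations -0.24 to 0.07). The replicate block gave 3 calls, against 5.65% of all genes higher and 5.37% lower, with SPARCL1 at an adjusted p of 0.0583 (limma).

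Direction changed with array weights for COL25A1 (0.30), COL4A2 (-0.036), LAMA4 (-0.017) and LAMB2 (-0.071), with the age covariate for COL14A1 (-0.20), COL16A1 (-0.077) and ELN (-0.066), with the 3′ to 5′ covariate for COL14A1 (-0.032), COL25A1 (0.36) and LAMA4 (-0.025), and for LAMB2 without the Shiba Inus (-0.050) or without the 5-year-old Shiba Inu and healthy dog 4 (-0.0014). With 1 dog left out, values crossed 0 for LAMB2 (-0.077 to 0.31), COL14A1 (-0.0076 to 0.18), COL4A2 (-0.12 to 0.34), ELN (-0.0047 to 0.073), LAMA4 (-0.056 to 0.18) and COL25A1 (-0.29 to 0.14).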

Other observations

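One healthy retina stood above the other healthy retinas in type I collagen and decorin. In healthy dog 5, COL1A2 was at 8.22 against 6.26 to 7.31 in the other healthy dogs, and DCN at 8.20 against 6.35 to 7.00. A COL1A1 probe set below the expression minimum was at 7.35 there and at 3.93 to 4.33 in the other healthy retinas. One LUM probe set was at 6.36 in that retina and at 6.35 in healthy dog 2, so that it did not stand apart there, and BGN was at 7.36, the lowest of the healthy retinas. The pigment epithelium markers of this retina had a median log2 difference of -0.41 from the healthy mean. These values were noticed after the data were seen and carry no test.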
